A study of Homo sapiens with 6 samples.

Results

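The genes described here are the 37 genes of the human mitochondrial chromosome, out of 60664 genes counted in the series. They were taken as every gene identifier of the count table that GENCODE release 44 places on the mitochondrial chromosome of GRCh38 with a symbol starting with MT-. They comprise 13 protein-coding genes, 2 rRNA genes and 22 tRNA genes. The cells were U-2 OS, an established osteosarcoma line of human bone whose genotype is labelled polyploid, transiently transfected at 30 nM with control siRNA (siCTRL) or with siRNA targeting SFPQ (siSFPQ). Each condition had 3 replicates, which gives 6 libraries of poly(A)-selected RNA. SFPQ is a nuclear RNA- and DNA-binding protein, and the experiment asks how the transcriptome changes when it is depleted. Total RNA was prepared from the cells, and both conditions carry the same treatment apart from the target of the siRNA.

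Mitochondrial DNA is a circular genome that encodes core subunits of respiratory complexes I, III, IV and V together with the rRNAs and tRNAs of the mitochondrial ribosome. Both strands are transcribed by the polymerase POLRMT into long precursors, and the tRNAs that lie between the other genes are cut out to release mRNAs and rRNAs. Most genes are read from the heavy strand; MT-ND6 and 8 of the tRNA genes are read from the light strand. The mRNAs receive short poly(A) tails, which for several of them complete a stop codon that the gene encodes only in part, whereas MT-ND6 mRNA is known to lack such a tail. This layout matters for poly(A)-selected, gene-counted libraries, and the sequences that follow show where. They are from the GRCh38 mitochondrial chromosome, written 5′ to 3′ on the strand of the gene. The 4 gene ends show a stop codon encoded in part or in full, with the encoded stop bases in capitals. As annotated, 6 of the 13 protein-coding genes ended with an incomplete stop codon, among them MT-ND1 and MT-ND4. The last base of the MT-ATP6 stop codon is also the first base of MT-CO3.
MT-ND1, chrM:4245-4262, + strand: cattccccctcaaaccTA
MT-ND4, chrM:12120-12137, + strand: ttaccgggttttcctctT
MT-CO2, chrM:8252-8269, + strand: cccgtatttaccctaTAG
MT-ATP6, chrM:9190-9207, + strand: ctgcacgacaacacaTAA

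Neighbouring genes also overlap. MT-ATP8 and MT-ATP6 share 46 bases and are carried by the same mRNA, as are MT-ND4L and MT-ND4, which share 7 bases. The shared bases are in capitals in the stretches below, since a read that covers them touches both genes.
MT-ATP8/MT-ATP6, chrM:8515-8584, + strand: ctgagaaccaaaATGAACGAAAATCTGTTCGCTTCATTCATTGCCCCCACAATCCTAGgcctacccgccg
MT-ND4L/MT-ND4, chrM:10748-10778, + strand: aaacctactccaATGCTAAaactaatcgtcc

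The counts summed to between 46142855 and 47119203 per library in siCTRL and to between 43469321 and 45543610 in siSFPQ. SFPQ itself had 22338, 23139 and 21753 counts in the siCTRL libraries and 3140, 3863 and 3151 in the siSFPQ libraries, in the order of their replicate numbers, so the targeted transcript was low in each library labelled siSFPQ (log2 fold change -2.73, standard error 0.0498). Of the markers of mesenchymal cells and bone tumours, RUNX2, VIM, FN1, SPARC, COL1A1 and THY1 were at 55.1 CPM or more in each library, while COL1A2 and NT5E averaged 0.964 and 0.0838 CPM. Marker sums differed between the groups: the 8 mesenchymal markers went from 7926 ± 266.5 to 7017 ± 84.4 CPM, the 4 epithelial markers from 202 ± 5.91 to 446 ± 22.1 CPM and the 3 endothelial markers from 4.58 ± 0.648 to 7.02 ± 0.418 CPM (SD, n = 3 each). The epithelial sum was nearly all KRT8, while KRT19 stayed at or below 0.220 CPM, and leukocyte markers summed to between 0.264 and 0.940 CPM. Within the mesenchymal list COL1A1 and FN1 fell (log2 fold changes -0.35 and -0.53), VIM rose (0.32) and RUNX2 was at 0.06 without passing the test. The part of these markers in the mitochondrial values was not tested. Genes with at least 10 counts in total were tested with edgeR, and a gene is said to rise or fall where its adjusted p over all 29022 genes tested was under 0.05.

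The share of each library taken by mitochondrial genes was higher after SFPQ knock-down. It was 4.36%, 3.88% and 4.24% in siCTRL replicates 1, 2 and 3, and 6.18%, 5.50% and 5.31% in siSFPQ replicates 1, 2 and 3. No siSFPQ library overlapped a siCTRL library, and siSFPQ replicate 1 was the highest of all. The means were 4.16% ± 0.248 and 5.66% ± 0.456 (SD, n = 3 each), a ratio of 1.36. Counting error was small beside this, with 95% Wilson intervals of at most ± 0.00716 percentage points, which cover counting error only, since reads without molecular identifiers were counted. Without siSFPQ replicate 1 the ratio was 1.30. In RNA of bulk cultures, more mitochondrial RNA per cell, less nuclear-encoded RNA per cell and a change in the make-up of the culture cannot be told apart.

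**Figure D1:**
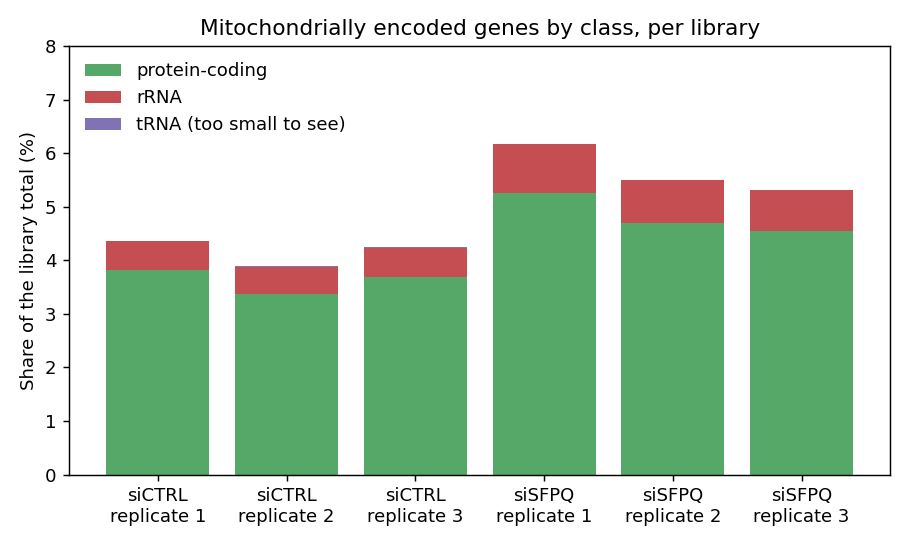
Stacked bars show the share of the library total (%, axis from 0) taken by mitochondrial protein-coding, rRNA and tRNA genes in each of the 6 libraries. The 3 siSFPQ bars reach 5.31% to 6.18% and the 3 siCTRL bars 3.88% to 4.36%.

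Both of the large classes moved in this direction. Protein-coding genes took 3.62% ± 0.234 of the library in siCTRL and 4.83% ± 0.380 in siSFPQ, and rRNA genes took 0.538% ± 0.0170 and 0.824% ± 0.0769 (SD, n = 3 each). The ratio of siSFPQ to siCTRL was therefore 1.33 for mRNAs and 1.53 for rRNAs. Within the mitochondrial counts, rRNA made up 12.39%, 13.37% and 13.04% in the siCTRL libraries and 14.76%, 14.43% and 14.45% in the siSFPQ libraries, again without overlap. The rRNA counts come from libraries selected for poly(A), so they describe the part of the rRNA that was captured and not the rRNA of the cell.

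Of the 37 genes, 17 had enough counts to be tested, and 15 of these rose in siSFPQ. A rise at this threshold was found in 22.4% of all genes tested and in 26.5% of the 797 nuclear genes with a mean of at least 10000 counts, the range in which most mitochondrial genes lie. No mitochondrial gene fell by edgeR, at an adjusted or an unadjusted p under 0.05 (0 genes each), nor by DESeq2 (0 genes). None was past the study's threshold of 1.5 on the log2 scale by edgeR, adjusted or unadjusted, or by DESeq2 (0 genes each), a threshold passed upwards by 5.54% and downwards by 4.77% of all genes tested, and by 0.0% and 1.76% of the well-counted nuclear genes. A fall was found in 22.1% of all genes and in 43.9% of the well-counted nuclear genes. The normalized counts (counts divided by effective library size) of 11 of the 17 lay in siSFPQ wholly above those in siCTRL, and for 0 wholly below. Over all genes tested 26.9% lay wholly above and 25.4% wholly below, and over the well-counted nuclear genes 28.7% and 46.8%. The median log2 fold change of the 13 protein-coding genes was 0.24, beside 0.019 over all genes tested and -0.047 over the well-counted nuclear genes. DESeq2 in place of edgeR passed 10 of the 17; MT-RNR1, MT-ND2, MT-ATP8, MT-ND3 and MT-ND6 did not pass there.

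**Figure D2:**
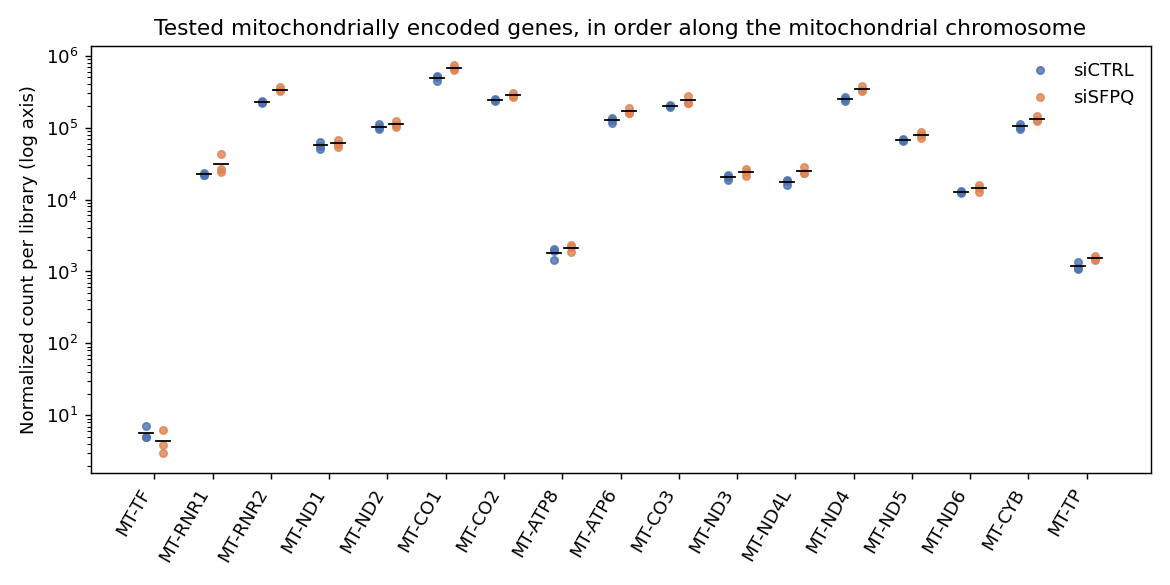
Normalized counts per library (log axis) of the 17 mitochondrial genes tested, in the order of the chromosome, with a point per library and a line at each group mean. Levels run from 4.35 for MT-TF to 682419 for MT-CO1 (siSFPQ means), and the siSFPQ points lie wholly above the siCTRL points for 11 genes.

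MT-CO1 (ENSG00000198804, chrM:5904-7445), the catalytic core of cytochrome c oxidase (complex IV), had the highest mean count of all genes in the series. In replicates 1, 2 and 3, the order used for all genes that follow, siCTRL had 513682, 445412 and 506995 counts and siSFPQ had 710481, 692829 and 645351. Every siSFPQ library was above every siCTRL library, and the log2 fold change of 0.48 (standard error 0.0437, edgeR adjusted p = 3.51e-11) was the largest among the 3 mitochondrially encoded subunits of complex IV. MT-CO2 (chrM:7586-8269), which binds cytochrome c, rose less, from 234944, 238358 and 248993 counts to 291638, 272491 and 278657. The groups did not overlap; the change was 0.22 on the log2 scale (standard error 0.0374, edgeR adjusted p = 8.78e-06). MT-CO3 (chrM:9207-9990), the third core subunit, had 200570, 195314 and 208598 counts in siCTRL and 263380, 225068 and 225490 in siSFPQ. Here siSFPQ replicate 1 stood above the other siSFPQ libraries: the log2 fold change of 0.24 (standard error 0.0483) was 0.15 without it, still past the test (edgeR adjusted p = 0.00225).

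Complex I, the NADH dehydrogenase, has 7 mitochondrial subunits, and 6 of them rose. The most counted was MT-ND4 (ENSG00000198886, chrM:10760-12137), a proton-pumping subunit of the membrane arm, with 269568, 232527 and 252805 counts in siCTRL and 366736, 344769 and 330004 in siSFPQ. Its log2 fold change was 0.46 (standard error 0.0447, edgeR adjusted p = 1.43e-10). MT-ND4L (chrM:10470-10766), its partner on the same mRNA, went from 18789, 15738 and 17848 counts to 27601, 23881 and 23511, a log2 fold change of 0.52 (standard error 0.0559, edgeR adjusted p = 1.69e-09). In both genes the groups were clearly apart, and whether their changes differed was not tested.

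MT-ND5 (chrM:12337-14148), the next pump subunit along the chromosome, had 68699, 65061 and 67310 counts in siCTRL and 83207, 81570 and 72815 in siSFPQ, a log2 fold change of 0.24 (standard error 0.0427, edgeR adjusted p = 1.97e-05). MT-ND3 (chrM:10059-10404) had 20726, 18763 and 21771 counts against 26014, 21985 and 24164, and the normalized ranges overlapped in spite of a log2 fold change of 0.23 (standard error 0.0524, edgeR adjusted p = 3.70e-04). The subunits nearest the rRNA genes changed least. MT-ND1 (chrM:3307-4262) had 63467, 51132 and 55703 counts in siCTRL and 64402, 60992 and 54911 in siSFPQ; its log2 fold change of 0.08 (standard error 0.0551, edgeR adjusted p = 0.259) did not pass the test. It was 0.008 without siCTRL replicate 2, and it passed without siCTRL replicate 1 (0.17, adjusted p = 0.0227) or siSFPQ replicate 3 (0.16, adjusted p = 0.0349). MT-ND2 (chrM:4470-5511) had 110255, 96133 and 100152 counts in siCTRL and 118496, 105461 and 109452 in siSFPQ. Its groups overlapped as well, and its log2 fold change of 0.12 (standard error 0.0464, edgeR adjusted p = 0.0362) fell below the threshold of the test without siCTRL replicate 2 (0.075, adjusted p = 0.232), siCTRL replicate 3 (0.105, adjusted p = 0.114) or siSFPQ replicate 1 (0.058, adjusted p = 0.379).

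MT-ND6 (ENSG00000198695, chrM:14149-14673) is the only protein-coding gene read from the light strand. It had 12546, 12324 and 12993 counts in siCTRL and 15331, 14978 and 12738 in siSFPQ. The third siSFPQ library lay among the siCTRL libraries, and the log2 fold change of 0.18 (standard error 0.0497, edgeR adjusted p = 0.00291) was 0.12 without siSFPQ replicate 1 (adjusted p = 0.0679) and 0.28 without siSFPQ replicate 3. As a share of all mitochondrial mRNA counts, MT-ND6 was 0.712%, 0.778% and 0.753% in siCTRL and 0.670%, 0.700% and 0.616% in siSFPQ, with every siSFPQ library below every siCTRL library. The strand setting of the counting is not given, so these counts may hold heavy-strand reads of the same stretch. They are therefore not a measure of the light-strand mRNA alone.

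MT-CYB (chrM:14747-15887), the cytochrome b of complex III, had 113162, 94814 and 102335 counts in siCTRL and 139061, 128854 and 123633 in siSFPQ. Its log2 fold change of 0.33 (standard error 0.0488, edgeR adjusted p = 7.05e-07) was intermediate among the mRNAs, with no overlap between the groups. Of the ATP synthase (complex V) subunits, MT-ATP6 (chrM:8527-9207), part of the proton channel, had 133709, 117546 and 127666 counts in siCTRL and 178738, 165445 and 163941 in siSFPQ. It rose by 0.42 on the log2 scale (standard error 0.0435, edgeR adjusted p = 6.33e-10). MT-ATP8 (chrM:8366-8572), on the same mRNA, had only 1941, 1438 and 2039 counts in siCTRL and 2277, 1898 and 2196 in siSFPQ. The MT-ATP8 groups overlapped, and its log2 fold change of 0.23 (standard error 0.0802, edgeR adjusted p = 0.0184) was no longer past the test without siCTRL replicate 2 (0.090, adjusted p = 0.301), siSFPQ replicate 1 (0.17, adjusted p = 0.197) or siSFPQ replicate 3 (0.225, adjusted p = 0.0719). Whether MT-ATP8 and MT-ATP6 differed in their change was not tested.

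**Figure D3:**
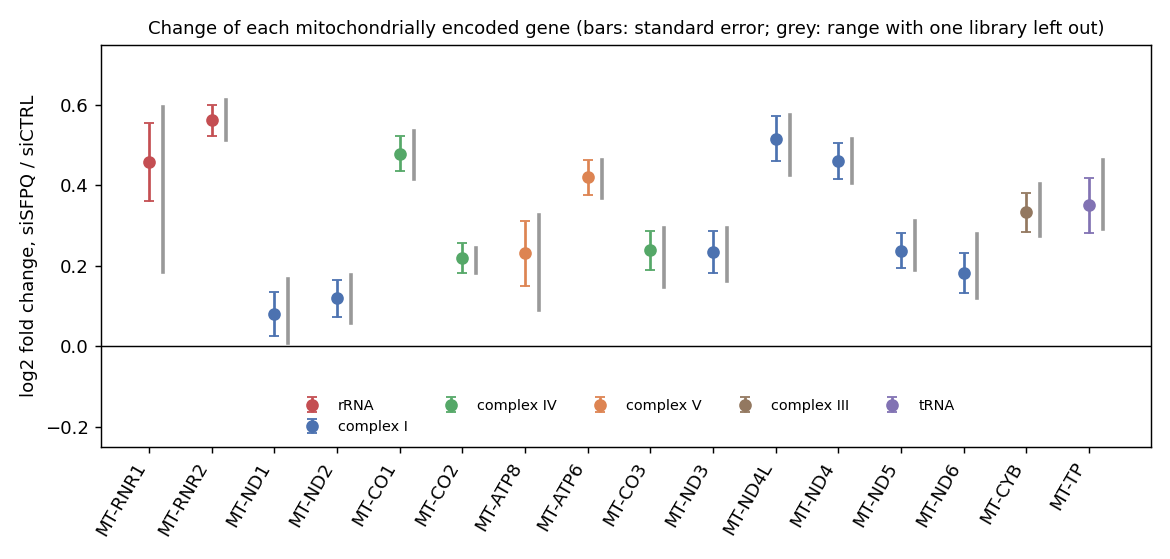
Points give the log2 fold change of siSFPQ over siCTRL for 16 mitochondrial genes in the order of the chromosome, coloured by respiratory complex or RNA class, with bars for the standard error and grey lines for the range when 1 library is left out. Values run from 0.08 for MT-ND1 to 0.56 for MT-RNR2; MT-TF, with few counts, is not drawn.

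The largest change was that of MT-RNR2 (ENSG00000210082, chrM:1671-3229), the 16S rRNA of the large ribosomal subunit. It had 227358, 222468 and 235529 counts in siCTRL and 355191, 336300 and 322455 in siSFPQ, a log2 fold change of 0.56 (standard error 0.0391, edgeR adjusted p = 4.36e-14). Its range with each library left out was 0.51 to 0.61, and the groups were far apart. MT-RNR1 (chrM:648-1601), the 12S rRNA of the small subunit, had 22029, 22197 and 23356 counts in siCTRL and 41005, 24722 and 26967 in siSFPQ. Here siSFPQ replicate 1 stood well above the other libraries of its group. The log2 fold change of 0.46 (standard error 0.0973, edgeR adjusted p = 1.90e-04) was 0.19 without that library (adjusted p = 0.00157). MT-RNR1 did not pass with DESeq2. The count ratio of MT-RNR2 to MT-RNR1, which lay between 10.0 and 10.3 in siCTRL, was 8.66, 13.6 and 11.96 in siSFPQ replicates 1, 2 and 3. The same library also had 3510 counts of RN7SL1, an abundant cytoplasmic RNA without a long poly(A) tail, against 280 and 568 in the other siSFPQ libraries and 148 to 364 in siCTRL. Of the 5 RNAs listed as lacking a long poly(A) tail, RN7SL1 alone was above 0, and RN7SK, RN7SL2, RMRP and RPPH1 were at 0. Whether the counting left out reads of those genes was not tested, so their zeros do not show that such RNA was absent. The part of RN7SL1 in the MT-RNR1 value was not tested.

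Among the tRNA genes, 20 of 22 had 0 counts in all 6 libraries. A count of 0 allows up to 0.0690 CPM in the smallest library, but for these genes the counting of reads sets a limit besides depth. The tRNA genes are 59 to 75 bases long and the reads are 150 bases, so a read that covers a tRNA gene usually reaches a neighbour, and STAR's gene counting leaves out a read that touches more than a single gene. Every stretch of 150 bases on the chromosome was therefore assigned to the genes it touches, as a model of a single read. The libraries were sequenced paired-end, and fragments covered by a read pair were not modelled. Regardless of strand, 20 tRNA genes had no stretch of their own, and they were the 20 listed at 0; MT-TF and MT-TP, which border the non-coding control region, had 71 and 70. With strand taken into account, 13 tRNA genes would have had none, and MT-TQ (chrM:4329-4400) would have had 221. The sequences of MT-TP and MT-TQ, both light-strand tRNAs, are shown for this contrast, with the 3 bases that MT-TQ shares with its opposite-strand neighbour MT-TI in capitals.
MT-TP, chrM:15956-16023, - strand: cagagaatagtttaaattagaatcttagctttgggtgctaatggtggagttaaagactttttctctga
MT-TQ, chrM:4329-4400, - strand: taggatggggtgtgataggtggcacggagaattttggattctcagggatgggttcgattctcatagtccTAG

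Nuclear genes nested in a well-counted gene were also mostly at 0. Of 269 genes whose exons lie wholly inside those of a gene with a mean of at least 1000 counts on the opposite strand, 97.0% had 0 counts in all libraries, against 94.8% of 115 such genes on the same strand. The zeros were as frequent on the opposite strand as on the same strand to within a few percentage points. How often comparable genes that are not nested were at 0 was not counted, so these values do not tell the strand setting. The strand setting of the counting is not given in the sources used here, so the value of MT-ND6, or of any other gene here, may hold reads from both strands of its stretch.

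MT-TP, the proline tRNA gene, had 1113, 1093 and 1367 counts in siCTRL and 1588, 1472 and 1509 in siSFPQ. The groups did not overlap, and the log2 fold change was 0.35 (standard error 0.0681, edgeR adjusted p = 5.94e-05). A fragment that fills a read of 150 bases is longer than this tRNA, and the stretches that touch MT-TP alone reach into the control region. MT-TF, the phenylalanine tRNA gene at the other side of the control region, had 5, 5 and 7 counts in siCTRL and 6, 4 and 3 in siSFPQ. The change of -0.38 on the log2 scale (standard error 0.792, edgeR adjusted p = 0.749) was smaller than its error, and no difference was detectable at this depth. The tRNA genes listed at 0 are MT-TV, MT-TL1, MT-TI, MT-TQ, MT-TM, MT-TW, MT-TA, MT-TN, MT-TC, MT-TY, MT-TS1, MT-TD, MT-TK, MT-TG, MT-TR, MT-TH, MT-TS2, MT-TL2, MT-TE and MT-TT.

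Per length, the mitochondrial genes spanned a wide range of levels even though the heavy-strand genes start from common precursors. In siCTRL, MT-CO2 was highest at 352538 ± 11006 normalized counts per kb, followed by MT-CO1 at 317428 ± 24833 and MT-CO3 at 257407 ± 8879 (SD, n = 3 each). The complex IV mRNAs were thus the 3 highest. MT-ATP6 and MT-ND4, at 185765 ± 12206 and 182895 ± 13658 per kb, lay within their spread of each other, as did MT-ND1, MT-ND3 and MT-ND4L, at 59474 ± 6578, 59111 ± 4500 and 58876 ± 5333. MT-ND5 lay at 37046 ± 1055, and MT-ND6 and MT-RNR1 at 24077 ± 680 and 23650 ± 780. MT-ATP8 was lowest of the mRNAs, at 8739 ± 1571 per kb. It also had the fewest stretches of 150 bases of its own, 13 against 485 for MT-ATP6, and per 1000 such stretches the siCTRL levels were 139158 and 260836 normalized counts. These stretches model a single read, while the libraries were sequenced paired-end, so the scale is only approximate. On that scale the genes that were level per kb lay apart: MT-ND4 was at 206244 ± 15402, below MT-ATP6, and MT-ND1, MT-ND3 and MT-ND4L were at 70281 ± 7774, 103820 ± 7903 and 124015 ± 11232 (SD, n = 3 each). MT-ND6 and MT-RNR1 were at 33618 ± 950 and 28027 ± 925. The order of the levels therefore depends on the length used, and comparisons of siSFPQ with siCTRL within a gene do not.

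The make-up of the mitochondrial counts shifted between conditions. As a share of all mitochondrial counts, 3 mRNAs (MT-CO1, MT-ND4L and MT-ND4) were higher in each siSFPQ library than in any siCTRL library, 7 (MT-ND1, MT-ND2, MT-CO2, MT-CO3, MT-ND3, MT-ND5 and MT-ND6) were lower, and MT-ATP8, MT-ATP6 and MT-CYB overlapped. These shares sum to 100% in each library, so a gain of some genes lowers the share of others. Of the mRNAs with a lower share, all but MT-ND1 rose in the whole library. The shares are defined for mitochondrial genes only, so no rate over all genes stands beside these counts. MT-CO1 took 25.5%, 24.3% and 25.5% of the mitochondrial counts in siCTRL and 26.5%, 27.7% and 26.7% in siSFPQ. For MT-ND1 the shares were 3.15%, 2.79% and 2.81% against 2.40%, 2.44% and 2.27%. MT-ND2 showed the same direction, from a mean of 5.26% ± 0.217 to 4.38% ± 0.159 (SD, n = 3 each), so genes with a small rise in the whole library lost ground within the mitochondrial RNA. When the fit was scaled to the mitochondrial total, 2 genes passed as lower (MT-ND1 at -0.30, adjusted p = 0.0148, and MT-ND2 at -0.26, adjusted p = 0.0380) and 0 as higher, with standard errors near 0.11 for all genes but MT-TF. Summed by complex, only complex V changed its share of the mRNA counts without overlap, from 7.58% ± 0.107 to 7.92% ± 0.110; complex I took 31.2% ± 0.707 and 30.5% ± 0.159, complex III 6.11% ± 0.269 and 6.03% ± 0.0493, and complex IV 55.1% ± 1.08 and 55.5% ± 0.169 (SD, n = 3 each).

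**Figure D4:**
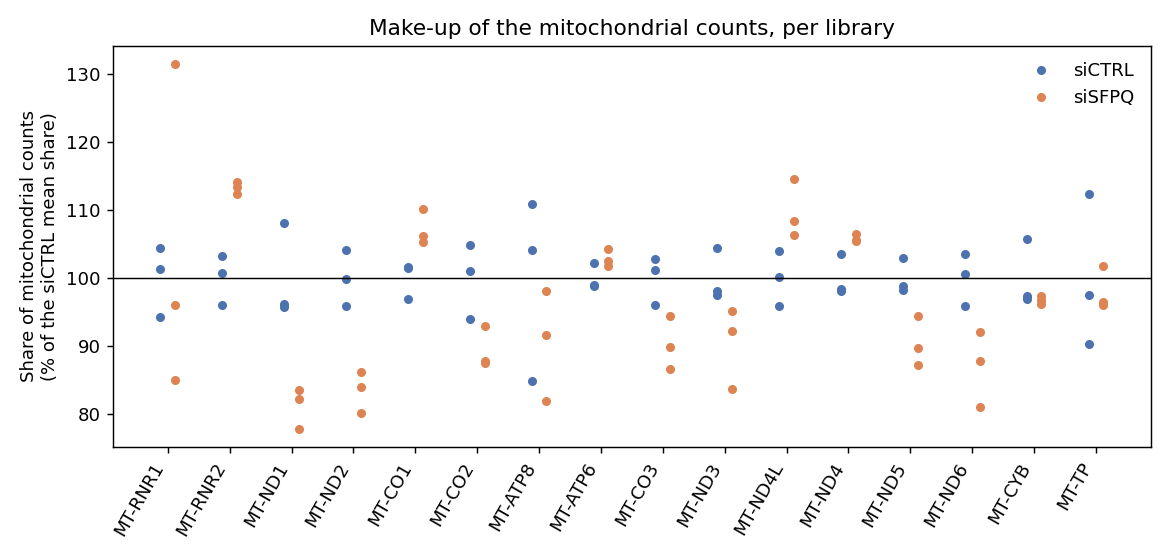
Each point is a gene's share of the mitochondrial counts in a library, as a percentage of the gene's mean share in siCTRL, for 16 genes in the order of the chromosome. MT-ND1 and MT-ND2 lie lower in all siSFPQ libraries, MT-CO1, MT-ND4L, MT-ND4 and MT-RNR2 lie higher, and MT-RNR1 is spread by siSFPQ replicate 1.

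The nuclear genome holds copies of mitochondrial sequence that can compete for reads. Among the 404 annotated pseudogenes and MTRNR2L genes of this kind, 130 had counts, and together they took 697 ± 88.9 CPM in siCTRL and 975 ± 60.2 CPM in siSFPQ (SD, n = 3 each), without overlap. MTATP6P1 on chromosome 1 (633696 to 634376) led with 24073, 20782 and 25796 counts in siCTRL and 32965, 33788 and 30893 in siSFPQ. Its log2 fold change of 0.46 (standard error 0.0499) stood beside the 0.42 of MT-ATP6, that of MTCO1P12 (0.49) beside the 0.48 of MT-CO1, and that of MTND4P12 on chromosome 5 (0.39) beside the 0.46 of MT-ND4. An exact nuclear copy on chromosomes 1 to 22, X or Y was found for 15.7% of the 150-base stretches of MT-ND2, 14.4% of those of MT-CO1, 10.4% of those of MT-RNR1 and 1.1% of those of MT-ND1, and for none of those of the other mRNAs or of MT-RNR2. Stretches whose nuclear copy differs at any base were not counted, so genes without an exact copy may still share reads with nuclear copies. The part of exact or inexact copies in the mitochondrial values was not tested.

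The nuclear genes that act on mitochondrial DNA and RNA were taken from lists by role, whose counts stand beside the 22.4% that rose and the 22.1% that fell over all genes tested. Over the nuclear genes with a mean of at least 10000 counts, 26.5% rose and 43.9% fell. Most listed genes lay below that level, and neither background is matched to the lists in count. Of 10 genes for mitochondrial transcription, 4 rose and 2 fell (1 without siCTRL replicate 1, siCTRL replicate 3 or siSFPQ replicate 1), with a median log2 fold change of 0.095. POLRMT, the mitochondrial RNA polymerase, rose most, from 1924 ± 43.3 to 3209 ± 92.5 normalized counts (SD, n = 3 each; log2 fold change 0.74, standard error 0.0449, edgeR adjusted p = 1.36e-15). TFB2M, which opens the promoter for the polymerase, rose by 0.38 on the log2 scale, and TFAM, which packages mitochondrial DNA and activates its promoters, by 0.20 (standard errors 0.0599 and 0.0401). MRPL12, a ribosomal protein that also binds the polymerase, rose by 0.46 (standard error 0.116), but 69.5% of its exon bases are shared with another annotated gene, so its count is uncertain.

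In the list for RNA processing, stability and degradation, 16 of 26 genes rose and 2 fell, with a median log2 fold change of 0.20. NSUN4, an RNA methyltransferase that acts on mitochondrial rRNA and ribosome assembly, rose by 0.70 on the log2 scale (standard error 0.0634, edgeR adjusted p = 3.07e-11). Its normalized counts were 893 ± 61.0 in siCTRL and 1449 ± 89.4 in siSFPQ (SD, n = 3 each). FASTKD5, needed to release mRNAs that no tRNA flanks, rose by 0.56 (standard error 0.055), and PTCD1, a pentatricopeptide repeat protein of mitochondria, by 0.59 (standard error 0.119), although 58.4% of the exon bases of PTCD1 are shared with other genes. LRPPRC and SLIRP, which bind mitochondrial mRNAs as a pair and protect them, changed little: LRPPRC rose by 0.10 (standard error 0.0365, edgeR adjusted p = 0.0228) and SLIRP by 0.17 (standard error 0.0562, edgeR adjusted p = 0.0119).

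Of 15 genes that modify mitochondrial tRNAs, 7 rose and 4 fell, with a median log2 fold change of 0.11. TRIT1, which adds an isopentenyl group to tRNAs, fell by 0.45 on the log2 scale, whereas CDK5RAP1, which modifies the same position further, rose by 0.39, and QTRT2, a subunit of the queuosine-inserting enzyme, rose by 0.41 (standard errors 0.0625, 0.0458 and 0.0473). In the list for mitochondrial DNA replication and its nucleotide supply, 7 of 15 rose and 4 fell, with a median of 0.11. RNASEH1, which removes RNA from RNA:DNA hybrids in the nucleus and in mitochondria, had 1256, 1370 and 1372 counts in siCTRL and 908, 931 and 938 in siSFPQ. All siSFPQ libraries were lower, and the change was -0.53 on the log2 scale (standard error 0.0599, edgeR adjusted p = 4.20e-09); 17.1% of its exon bases are shared with another gene. DNA2, a nuclease and helicase of replication and repair, fell by 0.46 (standard error 0.0494), and TK2, the mitochondrial thymidine kinase, rose by 0.55 (standard error 0.0592), with 20.1% of its exon bases shared.

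The regulators of mitochondrial biogenesis moved in both directions, with 4 of 10 rising, 5 falling and a median log2 fold change of -0.10. PPARGC1A, a coactivator of genes for oxidative metabolism, had 749 ± 63.9 normalized counts in siCTRL and 452 ± 11.1 in siSFPQ (SD, n = 3 each; log2 fold change -0.73, standard error 0.0802, edgeR adjusted p = 2.38e-09). ESRRA, a nuclear receptor that works with it, rose by 0.66 on the log2 scale and MYC by 0.57 (standard errors 0.0587 and 0.0477).

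For the nuclear-encoded subunits of the respiratory chain, 89 genes were listed by symbol and 85 were tested. Of these 11 rose and 15 fell, beside 22.4% and 22.1% of all genes tested, and the median log2 fold change was -0.009, while 12 of the 13 mitochondrial subunits rose with a median of 0.24. With library size alone in place of TMM normalization, the nuclear subunits split into 22 that rose and 10 that fell, and without siSFPQ replicate 1 the number that fell was 9. Among called subunits with a mean of at least 1 CPM, the 3 largest changes were in complex I. NDUFV2, a subunit of the NADH-oxidizing arm, had 98, 81 and 74 counts in siCTRL and 433, 509 and 406 in siSFPQ, a log2 fold change of 2.41 (standard error 0.127, edgeR adjusted p = 2.78e-17), with 28.4% of its exon bases shared with another gene. NDUFS4, an accessory subunit that stabilizes the complex, fell from 2062 ± 78.6 normalized counts to 781 ± 36.7, and NDUFA10 from 4586 ± 84.8 to 2850 ± 20.6 (SD, n = 3 each; log2 fold changes -1.40 and -0.69). NDUFA4L2, a relative of a cytochrome c oxidase subunit with 4 to 40 counts per library, was the only one that fell past the 1.5 threshold, at -1.67 (standard error 0.552, edgeR adjusted p = 0.0136).

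**Figure D5:**
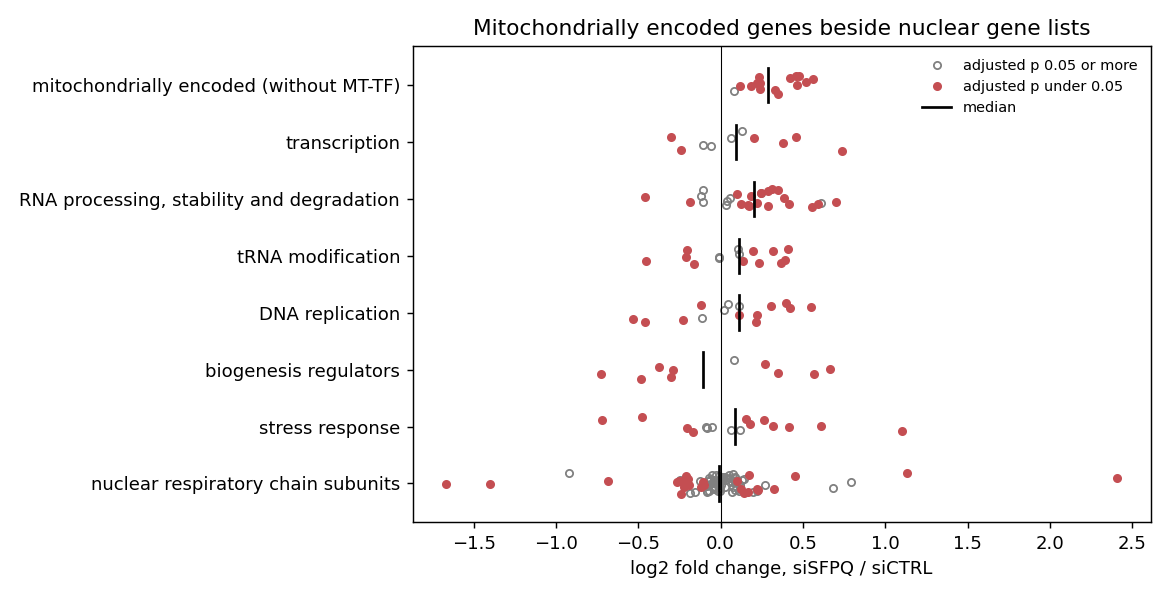
Each point is the log2 fold change of a tested gene, in red where its adjusted p was under 0.05, for the mitochondrial genes (without MT-TF) and 7 nuclear lists; black lines mark medians. The mitochondrial genes lie between 0.08 and 0.56 with a median of 0.29, and the nuclear respiratory chain subunits lie around a median of -0.009.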

How the data were processed

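RNA of 6 U-2 OS cultures was analysed, 3 siCTRL and 3 siSFPQ, grouped by sample title. The authors made stranded mRNA libraries, checked reads with FastQC, quantified genes with STAR 2.7.9a (version from the submitters' processing notes) on Ensembl GRCh38, and deposited raw counts per gene. Trimming and the strand setting are not given in the sources used here. All 6 columns carry sample names, and 0 were left unused. The methods call the replicates biological triplicates without naming separate cultures; p-values measure the spread between these libraries, which may be technical.

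The main test was edgeR's quasi-likelihood test (version 4.0.16 under R 4.3.3; TMM, no covariate, at least 10 counts in total, Benjamini-Hochberg over 29022 genes). Standard errors were derived from the fold change and the test statistic, so they rest on a variance estimated in part from other genes. DESeq2 1.42.0 was an alternative, beside other filters, scalings, a replicate block and each library left out. Total counts were 43469321 to 47119203 per library, and 3 counts correspond to 0.0637 to 0.0690 CPM. Shares over several mitochondrial genes are given without a test. GENCODE release 44, on the same GRCh38 build, matched 99.67% of the identifiers. Nuclear copies were found with megablast as exact matches of 150 bases to the reference; the mitochondrial genome of U-2 OS itself was not analysed here.

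All 37 mitochondrial genes are named, and from each nuclear list the 3 largest changes past the test with a mean of at least 1 CPM, any gene past 1.5, and RNASEH1, TFAM, POLRMT, LRPPRC and SLIRP. The members and lists were chosen with earlier results of these data known. The fitting code was tested on simulated data. Within a group, chi-square over degrees of freedom between libraries was 3.77 to 5.49, where a library deposited again would give a value near that of sampling noise, so all 6 were kept.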

Additional observations from a re-analysis of the deposited data

How the results depend on the processing

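Over all genes, 1609 were called higher and 1384 lower; filterByExpr gave 967 higher, and with no fold change threshold 6514 were higher and 6421 lower. Of the mitochondrial genes, 15 rose and 0 fell, with 14 to 16 rising under each other filter or scaling apart from the mitochondrial total, 10 by DESeq2 and 12 to 16 with a library left out. Scaled to the mitochondrial total, 0 rose and 2 fell, with the wider standard errors described above. By its construction that fit compares the genes with each other. The log2 fold change turned negative for MT-ND1 (-0.30), MT-ND2 (-0.26), MT-CO2 (-0.16), MT-ATP8 (-0.144), MT-CO3 (-0.147), MT-ND3 (-0.147), MT-ND5 (-0.145), MT-ND6 (-0.20), MT-CYB (-0.047) and MT-TP (-0.028). Under the other alternatives, 202 of 220 values of single mitochondrial genes kept their direction and side of the threshold, 14 lost the call, 4 gained it and 0 reversed. The log2 ratio of the mitochondrial share lay between 0.38 and 0.49 with a library left out, and between 0.38 and 0.47 with other denominators. Library size alone moved the transcription list from 2 to 1 falling and the nuclear respiratory chain list from 11 to 22 rising and from 15 to 10 falling, and gave 9 rising and 3 falling for DNA replication and for stress response; the cause was not tested. With a library left out, transcription genes that fell numbered 1 to 2, and respiratory chain genes that fell numbered 9 (without siSFPQ replicate 1) to 18.

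The replicate numbers gave no clear pairing of the libraries. Deviations from the group means correlated at -0.012, 0.076 and 0.050 for numbers 1, 2 and 3. Pairs of unlike number lay between -0.077 and 0.027. The values for numbers 2 and 3 were thus the highest, while siCTRL replicate 1 correlated best with siSFPQ replicate 3. With the replicate block, 1419 genes were higher and 1240 lower, and 16 mitochondrial genes rose, MT-ND1 among them (log2 fold change 0.081, edgeR adjusted p = 0.00387).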

Other observations

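Genes of the mitochondrial and integrated stress responses did not move as a block. Of 16 listed, 7 rose and 4 fell, with a median log2 fold change of 0.090. Over all genes tested 22.4% rose and 22.1% fell. Over the nuclear genes with a mean of at least 10000 counts the shares were 26.5% and 43.9%. Neither background is matched to the list in count. TRIB3, a pseudokinase induced by ATF4, had 1533, 1453 and 1525 counts in siCTRL and 3165, 3028 and 3507 in siSFPQ (log2 fold change 1.10, standard error 0.052, edgeR adjusted p = 1.47e-18). GDF15, a secreted stress cytokine, rose by 0.61 on the log2 scale (standard error 0.0994). DDIT3, the transcription factor CHOP, fell by 0.72 (standard error 0.105), with 39.6% of its exon bases shared with other genes. The replication-dependent histone genes, whose mRNAs end in a stem-loop and carry no poly(A) tail, took 436 ± 9.86 CPM in siCTRL and 341 ± 10.7 CPM in siSFPQ (SD, n = 3 each), without overlap. A relation of this sum to the mitochondrial values was not tested.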
